A study of Homo sapiens with 49 samples.

Results

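The occupancy of c-JUN (JUN) on the genome of Ishikawa cells was compared between vehicle (DMSO) and 17β-estradiol (E2). The regions described here are the peaks of the JUN ChIP-seq list of each treatment, 3768 after DMSO and 18311 after E2, together 22079 of the 528044 peaks in the 45 peak lists of the series. A peak was called shared where at least 1 bp of it overlapped a peak of the other treatment, and E2-only or DMSO-only where none did. Ishikawa is an established line of human endometrial adenocarcinoma that carries the estrogen receptor. Cells had been kept in hormone-depleted medium and were then given 10 nM E2 or DMSO for 1 h before fixation. Histone marks of the same line were taken after 8 h. There was 1 JUN library per treatment, so no difference between the treatments has a replicate check, no test was made, and treatment and library cannot be told apart. The range after a share is its 95% interval by the exact Clopper-Pearson method and stands for counting error alone. At their start sites, 6 of 6 epithelial markers and 5 of 6 markers of the endometrial lineage had H3K4me3 after DMSO, all but SOX17, against 1 of 6 stromal and 1 of 6 blood markers. Of 6 luminal breast markers, 4 had it, so these markers set the line apart from blood and stroma better than from breast.

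JUN is a basic leucine zipper protein that binds DNA as a dimer, with FOS proteins as the AP-1 transcription factor or with other JUN and ATF proteins. JUN and FOS dimers recognise the AP-1 motif, and dimers with ATF proteins a longer relative of it, the cyclic AMP response element (CRE). AP-1 is activated by growth factors, stress and MAP kinase signalling, and much of its binding is at enhancers. The estrogen receptor binds its own palindrome, the estrogen response element (ERE), and can also be brought to DNA by AP-1.

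The sequences around strong summits show the kinds of site at issue. Each is 101 bases centred on the summit of the E2 peak, forward strand, hg19 (GRCh37). The first 3 belong to E2-only peaks. Near FOXD1 (chr5:72613464-72613564) the capitals mark both arms of a perfect ERE, near DDX1 (chr2:15782519-15782619) the arms of an ERE with 1 mismatch, and in the intron of GREB1, an estrogen-induced gene (chr2:11638822-11638922), again those of an ERE with 1 mismatch.
FOXD1: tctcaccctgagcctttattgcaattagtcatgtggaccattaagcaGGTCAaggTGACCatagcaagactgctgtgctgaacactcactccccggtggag
DDX1: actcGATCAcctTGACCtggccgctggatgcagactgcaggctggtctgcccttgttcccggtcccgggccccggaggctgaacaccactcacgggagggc
GREB1: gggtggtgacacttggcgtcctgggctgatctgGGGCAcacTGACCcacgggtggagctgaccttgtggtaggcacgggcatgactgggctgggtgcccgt
For contrast, the next 3 hold an AP-1 motif, in capitals, in an E2-only peak whose nearest protein-coding start site is KLF14 (chr7:130579060-130579160) and in the shared peaks nearest to STK38L (chr12:27332874-27332974) and within LIPC (chr15:58813847-58813947).
KLF14: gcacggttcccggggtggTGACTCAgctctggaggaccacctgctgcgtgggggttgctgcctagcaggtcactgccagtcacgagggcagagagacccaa
STK38L: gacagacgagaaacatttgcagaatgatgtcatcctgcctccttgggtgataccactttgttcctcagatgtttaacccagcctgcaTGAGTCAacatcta
LIPC: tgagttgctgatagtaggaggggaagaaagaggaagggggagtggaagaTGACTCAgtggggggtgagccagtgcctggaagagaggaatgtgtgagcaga

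Nearly all JUN peaks of vehicle-treated cells were found again after E2, whereas most E2 peaks had no DMSO counterpart. Of the 3768 DMSO peaks, 3578 were shared and 190 were DMSO-only (95%, 94.2 to 95.6, and the rest). Of the 18311 E2 peaks, 3362 were shared (18.4%, 17.8 to 18.9) and 14949 were E2-only (81.6%, 81.1 to 82.2). The counts differ between the lists because 169 E2 peaks spanned 2 or more DMSO peaks, 405 in all. The E2 peaks covered 8.56 Mb and the DMSO peaks 1.48 Mb, with median widths of 369 bp and 328 bp. The widest E2 peak, 19451 bp (chr3:134075126-134094576), ran over AMOTL2, which encodes an angiomotin of the Hippo pathway, and took in 11 separate DMSO peaks.

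The depth of the libraries differed in the same direction as the peak numbers. The pileup, the number of tags stacked at a summit, was recovered as a whole number for every peak of both lists, and ran from 11 to 320 after DMSO (median 25) and from 14 to 353 after E2 (median 40). The genome background, in tags per position, was 0.537 after DMSO and 1.09 after E2, a ratio of 2.02, and the libraries were estimated at 6.94 M and 14.4 M tags. Fold enrichment over background had medians of 11 and 9.59. With pileup and background of the E2 peaks scaled down to the DMSO tag number, 14066 E2 peaks still passed the limit of the lists (−log10 p-value of at least 10). Under that scaling 4170 of the E2-only peaks (27.9%) no longer passed and 10779 remained. The ratio of peak numbers was 4.86 as deposited and 3.73 so scaled, while the pairs of RNA polymerase II replicates of T-47D, the only replicates of the series, differed by ratios of 1.85 and 1.98.

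E2-only peaks were mostly weaker than shared ones. Their median summit pileup was 36 tags (quartiles 28 and 48) against 73 (52 and 104) for shared E2 peaks, and their median fold enrichment 8.75 against 19.4. On the DMSO scale the median pileup of E2-only peaks was 17.8 tags, and 3051 of them (20.4%) exceeded the median DMSO pileup. The strongest 2000 E2 peaks were shared in 79% of cases (77.1 to 80.7), the next 2000 in 43.1% (41 to 45.4) and those ranked 8001 to 10000 in 6.9% (5.83 to 8.1). Thus the share found in both lists fell at every step of rank. Shortening the E2 list to its 3768 strongest peaks, the length of the DMSO list, left 1401 E2-only peaks (37.2%, 35.6 to 38.7) with a median pileup of 67, and then 68.2% of DMSO peaks were shared. With the fold enrichment for ranking, 1616 E2 peaks were E2-only.

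**Figure D1:**
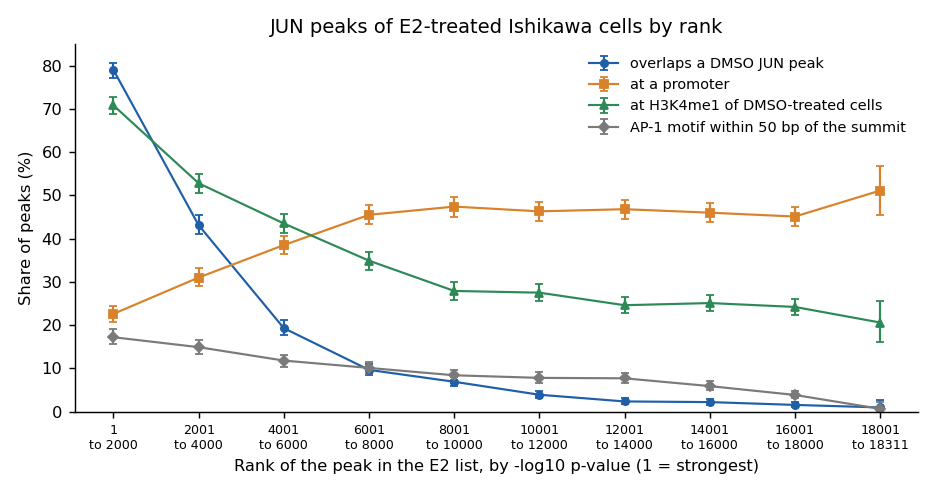
Share of E2 JUN peaks (y axis, percent) that overlapped a DMSO JUN peak, lay at a promoter, lay at H3K4me1 of DMSO-treated cells or held an AP-1 motif, by rank in the E2 list (x axis, steps of 2000 peaks, strongest first). Bars are exact 95% intervals, and the shared fraction falls from 79% to 0.965% while the promoter share rises from 22.6% to 51.1%.

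At sites bound in both treatments the E2 signal was the higher one in most pairs after allowing for depth. Summits lay at most 100 bp apart in 2709 pairs of peaks. Their median pileup was 27 tags after DMSO and 77 after E2, and the ratio of pileups, each divided by the genome background of its library, had a median of 1.38 (quartiles 1.1 and 1.71). It was above 1 in 82.1% of pairs (80.6 to 83.5), at least 2 in 338 and at most 0.5 in 20. ChIP enrichment of a library and occupancy of the sites cannot be told apart in this ratio. Within these libraries the ratio differed between kinds of site. The median was 1.27 in the 723 pairs at promoters and 1.42 in the 1986 others, 1.52 at H3K4me1 and 1.26 without it, and 1.49 with an AP-1 motif and 1.35 without. RARA, the retinoic acid receptor alpha, had a peak after E2 in 910 pairs, whose median was 1.55 against 1.29 in the others. The 26 pairs with an ERE of at most 1 mismatch had a median of 2.19 (quartiles 1.37 and 3.36), and 15 of them were at or above 2. Among the pairs with the largest ratios, which were picked after their values were seen, one at a MYO18A start site went from 23 tags to 245, and one in NDUFA11, a subunit of respiratory complex I, from 25 tags to 249, with scaled ratios of 5.27 and 4.93.

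**Figure D2:**
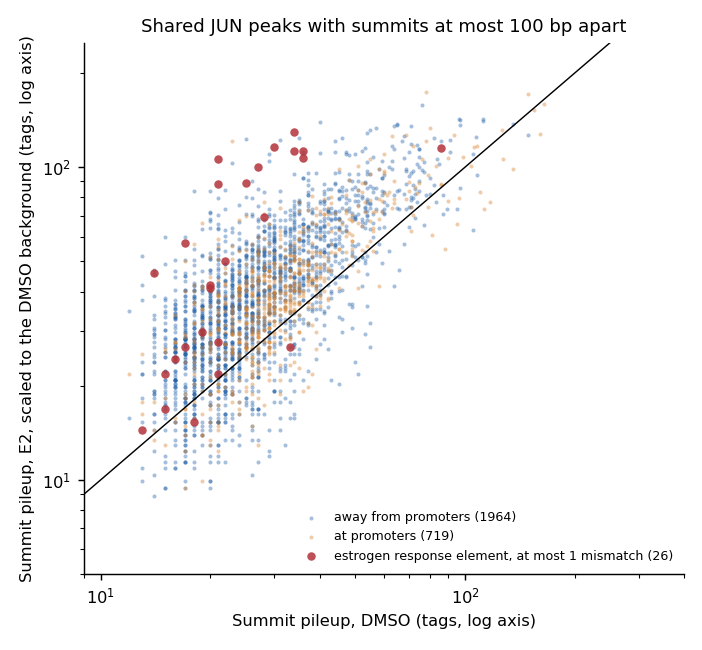
Summit pileup of 2709 shared JUN peaks after DMSO (x axis, tags, log scale) and after E2 divided by the ratio of genome backgrounds (y axis, tags, log scale), with the line of equality. Most points lie above the line, and 24 of the 26 pairs with an estrogen response element of at most 1 mismatch (large points) do so.

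E2-only peaks lay at promoters more often than shared peaks in the full lists, and less often among the strongest peaks. A promoter was 250 bp either side of any annotated start site. Of the E2-only peaks 6493 touched one (43.4%, 42.6 to 44.2), against 1050 of the shared E2 peaks (31.2%, 29.7 to 32.8) and 25 of the DMSO-only peaks (13.2%, 8.7 to 18.8). The summit was under 100 bp from a protein-coding start site in 25.6% of E2-only and 13.5% of shared E2 peaks, and the median distances were 1955 bp and 9330 bp. In the lists of equal length the order turned round, with 23.8% of E2-only (21.6 to 26.1), 28.4% of shared E2 (26.6 to 30.3) and 31.6% of DMSO-only peaks (29 to 34.3) at promoters and median distances of 10059 bp, 11517 bp and 5616 bp. The direction depended on rank. E2-only peaks had the lower promoter share among ranks 1 to 2000 (15.2% against 24.6%) and 2001 to 4000 (27.5% against 35.6%). They had the higher one in each of the 6 steps from 6001 to 18000, for example 48.1% (45.8 to 50.4) against 37% (28.9 to 45.6) at ranks 8001 to 10000. Those 6 steps held only 193 to 31 shared peaks each, and in most of them the intervals of both classes overlapped. Averaged over all steps with the shared peaks as weights, most of which are in the first steps, the E2-only share was 5.2 percentage points lower. The strongest E2-only peaks were the most distal: of the first 100 just 14 lay at promoters, and of those ranked 4001 to 8000, 47.2%. Of the peaks away from promoters, introns held 57.2% of the E2-only and 57.9% of the shared E2 peaks, and intergenic sequence 31.2% and 35.6%.

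In the full lists promoter and enhancer marks were both less frequent under E2-only than under shared peaks. H3K4me3, the mark of active promoters, lay under 60.2% of E2-only (59.4 to 61) and 66.1% of shared E2 peaks (64.5 to 67.7). With the summit itself required inside the mark the order turned, at 54.3% and 53.5%. H3K4me1, the mark of enhancers, lay under 32% (31.3 to 32.8) and 56.6% (54.9 to 58.3). At equal length the H3K4me3 shares were 55.2% and 70.3%. The H3K4me1 shares then came to 58% and 65.4%. Within steps of rank the E2-only share of H3K4me1 was lower by 1.1 points only. Overlap was counted from 1 bp of the whole peak unless stated. Shared E2 peaks were also the wider ones, with a median of 624 bp against 334 bp for E2-only peaks. With the summit required inside H3K4me1 the shares were 20.1% of E2-only and 26.8% of shared E2 peaks. The parts of strength and width in such gaps were not tested. The order for H3K4me3 depended on rank. E2-only peaks had the lower share at ranks 1 to 2000 (49.4% against 72.1%) and 2001 to 4000 (56.6% against 66.7%). They had the higher one in each step from 6001 to 18000, for example 63.4% (61.2 to 65.6) against 52.9% (44.2 to 61.4) at ranks 8001 to 10000. Here too the shared peaks were few in these steps, and in most of them the intervals of both classes overlapped. TAF1, a subunit of the general transcription factor TFIID, was at 56.5% of E2-only and 66.2% of shared E2 peaks after DMSO, and at 54.2% and 72.3% at equal length. The corepressor SIN3A of hormone-stripped medium was at 54.2% and 54.6% in the full lists, but at 46.8% (44.2 to 49.5) and 59% (57 to 61) at equal length. At promoters alone, 83% of the E2-only peaks had H3K4me3 without H3K4me1.

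LSD1 is the histone demethylase KDM1A, which removes methyl groups from H3K4. From DMSO to E2 its share rose at E2-only peaks and fell at shared E2 peaks as a whole. In both treatments LSD1 was less frequent at E2-only than at shared E2 peaks. After DMSO it was found at 27% of the sites of E2-only peaks (26.3 to 27.7) and after E2 at 53.8% (53.0 to 54.6). At shared E2 peaks as a whole the numbers ran the other way, 77.7% and 66.7%. That fall was away from promoters, from 82.1% to 60.3%. At promoters the share of shared E2 peaks rose as well, from 67.8% to 80.8%. Counting only sites where LSD1 was listed in one treatment, it was present in E2 alone at 31.8% of E2-only and 9.61% of shared E2 peaks, and in DMSO alone at 5.07% and 20.6%. The LSD1 list was itself longer after E2, 18384 regions against 8618, and its part in these shares was not tested. At equal length of the JUN lists the same contrast remained, with 29.1% (26.8 to 31.6) and 7.39% (6.37 to 8.52) of peaks at LSD1 of E2 alone. The DMSO-only peaks showed the reverse, with LSD1 at 53.2% after DMSO and 5.79% after E2.

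Other partners were fewer. RARA, with 137 regions after DMSO and 2883 after E2, lay after E2 at 31.5% of shared E2 peaks (30 to 33.1) and 7.81% of E2-only peaks (7.39 to 8.26), and at equal length at 40.8% and 16.6%. H3K27me3, the mark of Polycomb silencing, was at 30% of shared E2 and 6.19% of E2-only peaks after DMSO and at 28.9% and 23.8% after E2. At promoters the share rose in both classes, from 30.1% to 55.5% of shared E2 and from 4.6% to 44% of E2-only peaks. Away from promoters it went from 30% to 16.9% of shared E2 and from 7.41% to 8.23% of E2-only peaks. Of the E2-only peaks at promoters 41% had H3K27me3 listed after E2 alone, in a list that grew from 2199 to 6992 regions and from 0.601 Mb to 2.61 Mb. These lists covered just 0.0194% and 0.0842% of the genome, and 90.4% of the same promoter peaks had H3K4me3 after DMSO. Whether the overlaps stand for silencing was not tested. H3K36me3, of transcribed gene bodies, had 114 regions over 0.0313 Mb, too few for a comparison.

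**Figure D3:**
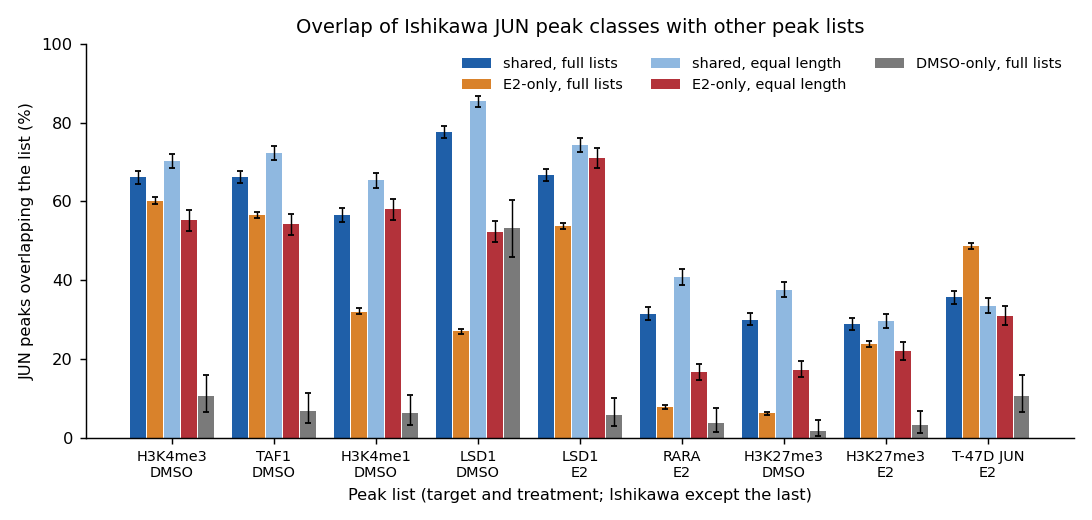
Share of Ishikawa JUN peaks (y axis, percent, exact 95% intervals) that overlapped regions of other lists (x axis), for shared and E2-only peaks in the full lists and in lists of equal length, and for DMSO-only peaks. LSD1 of E2-treated cells lies at 71.1% of the equal-length E2-only peaks and at 5.79% of the DMSO-only peaks.

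In the full lists the DMSO-only peaks were few, narrow and mostly without marks. Their median pileup was 21 tags and their median width 273 bp, against 26 tags and 333 bp for shared DMSO peaks. Neither H3K4me3 nor H3K4me1 was found at 161 of the 190 (84.7%, 78.8 to 89.5), compared with 24.2% of shared DMSO peaks (22.8 to 25.6). Against the E2 list at equal length, the 1200 DMSO-only peaks were unlike these 190, with neither mark at 43.8% (40.9 to 46.6) and LSD1 after E2 at 40.5% (37.7 to 43.3). The short MYC list of DMSO-treated cells, 61 regions, met 12 of the 190 (6.32%, 3.31 to 10.8), but 4 of the 3578 shared DMSO peaks (0.112%). The strongest DMSO-only peaks reached 45 tags in an intron of a non-coding gene 32927 bp from HMGA2, which encodes a chromatin-bending protein, 51 tags near the histone gene H3-5, and 42 tags in an intron of NOTCH1, the cell surface receptor. The peaks in C1D, a cofactor of the RNA exosome, and near IL1RAP, a subunit of the interleukin 1 receptor, had 40 and 39 tags. Of these sites the one in NOTCH1 carried both H3K4me3 and H3K4me1 and had LSD1 after E2, whereas the other 4 carried neither mark and had LSD1 after DMSO.

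AP-1 motifs were concentrated at JUN summits in every class. The letters TGACTCA and TGAGTCA, which are the same site read on either strand, were searched within 50 bp of the summit. They were present at 14.5% of shared E2 peaks (13.3 to 15.7), 8.49% of E2-only peaks (8.05 to 8.95) and 7.98% of DMSO-only peaks (4.53 to 12.8), compared with 1.64%, 1.55% and 1.06% of windows of the same length 1000 bp to either side. All protein-coding start sites held the motif in 1.25% of such windows. The 2 DMSO-only peaks on the mitochondrial genome were left out of the motif search. The GC content of the windows was 56.4%, 59.8% and 42.7% in the same order of classes, and its part in the motif shares was not tested. At equal length the shares were 17% (15.5 to 18.6) and 14.7% (12.9 to 16.7), and within steps of rank the E2-only share was 0.786 points lower, so that E2-only peaks had nearly the AP-1 content of shared peaks of like rank. The motif sat away from promoters, at 12.7% of distal and 3.05% of promoter E2-only peaks. CRE sites, spelled TGACGTCA, showed the opposite preference, with 1.93% (1.6 to 2.29) of promoter and 0.544% (0.399 to 0.725) of distal E2-only peaks, while all start sites held them in 0.665%.

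The ERE was more frequent at E2-only than at shared E2 peaks, most of all among strong peaks. The element was searched as arms GGTCA and TGACC with any 3 bases between them, a palindrome that reads alike on both strands, either perfect or with at most 1 mismatch in the 10 letters. The looser form was added after the data were seen. It was present at 214 of 14949 E2-only peaks (1.43%, 1.25 to 1.64) and 27 of 3362 shared E2 peaks (0.803%, 0.53 to 1.17), against 0.308% and 0.312% of the windows to either side and 0.258% of all start sites. At equal length it was at 6% of E2-only (4.81 to 7.37) and 0.845% of shared E2 peaks (0.517 to 1.3). The perfect palindrome was at 1.36% (0.818 to 2.11) and 0.127% (0.0261 to 0.37). No DMSO-only peak of 188 held the looser form, which allows a share of up to 1.94%. The matches lay close to the summit, with 3.14 and 3.43 matches per 100 E2-only peaks in the 50 bp on either side of it and 0.591 and 0.338 in shared peaks, whereas the profiles of the AP-1 motif ran nearly together in both classes.

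**Figure D4:**
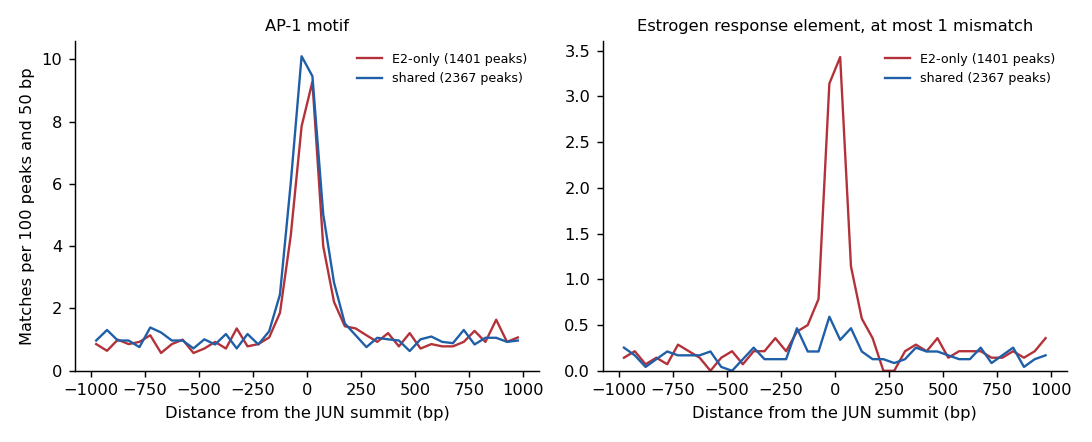
Motif matches per 100 peaks in steps of 50 bp (y axis) by distance from the JUN summit (x axis, bp), for E2-only and shared E2 peaks in lists of equal length. The AP-1 motif peaks at the summit in both classes (left), the estrogen response element with at most 1 mismatch in E2-only peaks (right).

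Elements were most frequent in the strongest E2-only peaks. Of the first 100, 22 held an ERE with at most 1 mismatch (14.3% to 31.4%), against 8 of the 100 strongest shared E2 peaks (3.52% to 15.2%), and 58 overlapped a RARA region of E2-treated cells. Of those ranked 101 to 500, 8% held the ERE, and of those ranked 8001 to 14949, 0.59%. The AP-1 motif varied less, at 12%, 16.5% and 5.94% of the same ranks. Thus the top of the E2-only list was mostly distal and had the highest shares of H3K4me1 and of the ERE, though not necessarily at the same peaks, and its lower part had the highest shares of promoters. The 214 E2-only peaks with an ERE were at promoters in 11.2% of cases (7.32 to 16.2), at H3K4me3 in 20.1%, at H3K4me1 in 39.3% (32.7 to 46.1) and at LSD1 of E2 alone in 50% (43.1 to 56.9), and only 22 held an AP-1 motif as well. E2-only peaks with an AP-1 motif, here the 1071 distal ones alone, were at LSD1 of E2 alone in 20.6% (18.2 to 23.2) and at H3K4me1 in 52.3%. Most distal E2-only peaks, 7216 of 8456, had neither sequence in the window.

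**Figure D5:**
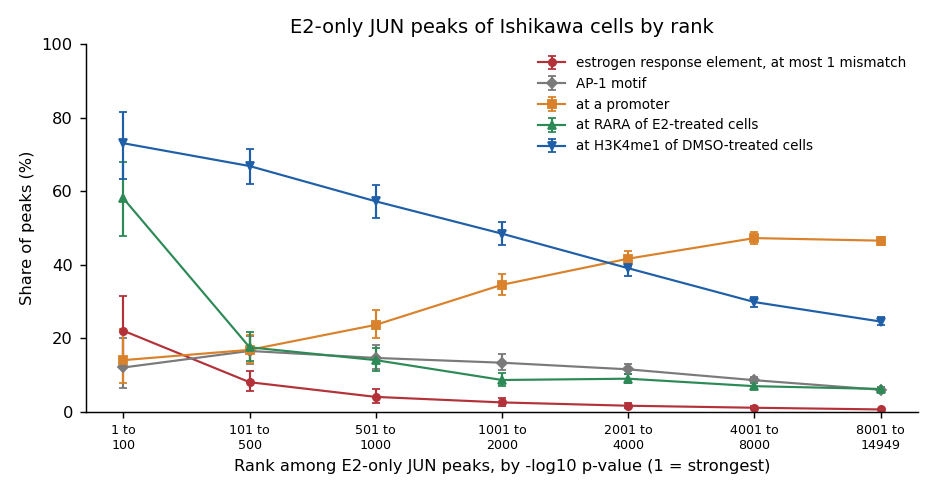
Share of E2-only JUN peaks (y axis, percent, exact 95% intervals) with each feature by rank among E2-only peaks (x axis, strongest first). The estrogen response element falls from 22% of the first 100 peaks to 0.59% of the last 6949, and the promoter share rises from 14% to 46.5%.

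The strongest E2-only peak lay in an intron of KAZN, which encodes the desmosome-associated protein kazrin (chr1:15240004-15240923), with a pileup of 252 tags and a fold enrichment of 114, the highest of either list. Scaled to the DMSO library this is 125 tags, where the median DMSO peak had 25. Next came an intron of ANO1, a calcium-activated chloride channel (chr11:69950506-69951325, 213 tags, fold 83.2), and an intron of CBFA2T3, a transcriptional corepressor (chr16:88989584-88992310, 213 tags, fold 81.5). The peak near the forkhead gene FOXD1, whose perfect ERE is printed above, stood 129301 bp from that gene in intergenic sequence, with 224 tags and a fold of 67. All 10 of the strongest E2-only peaks were away from promoters and overlapped H3K4me1 of DMSO-treated cells, LSD1 of E2-treated cells and RARA of E2-treated cells. LSD1 was already listed after DMSO at 6 of the 10, those near KAZN, ANO1, CBFA2T3, FOXD1, DDX1 and CCN5. The remaining 5 not yet described lay near LAPTM4B, a lysosomal membrane protein (208 tags), NTMT1, an amino-terminal methyltransferase (209), the Krüppel-like factor gene KLF14 (185), CCN5, which encodes a matricellular protein (172), and GPR37L1, an orphan receptor (210), and the DDX1 peak had 203.

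The strongest peak assigned to GREB1, 16405 bp from its nearest start site (chr2:11638565-11639150), was E2-only as well, with 180 tags and a fold of 53.9. It overlapped LSD1 and RARA of E2-treated cells, and neither H3K4me1 nor LSD1 of DMSO-treated cells.

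The shared peaks that were strongest in both lists, ranked by the lower of both −log10 p-values, are given one by one. The first lay 171877 bp from SMAD6, an inhibitor of BMP signalling (chr15:67175522-67176364), with 149 tags after DMSO and 256 after E2, a scaled ratio of 0.85. In an exon of SUSD1 (chr9:114803739-114804638) there were 135 and 277 tags, a ratio of 1.02. At the promoter of WDR74, a ribosome assembly factor, there were 161 and 259 tags, a ratio of 0.796. The peaks near STK38L, a kinase of the Hippo pathway (108 and 190 tags), and in LIPC, hepatic lipase (135 and 200), both with an AP-1 motif, had ratios of 0.871 and 0.733. Slightly higher ratios, 1.25, 1.27 and 1.25, were found in AFAP1L2, in the zinc transporter gene SLC39A11 and near TXN2, mitochondrial thioredoxin. At CCN1, an immediate early gene for a matricellular protein, 1 DMSO peak with 155 tags was met by an E2 peak at the start site with 308 tags (ratio 0.984) and another downstream with 151 (0.482). These sites were picked largely for their strength after DMSO, so nothing is read from their ratios as a set.

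E2-only peaks were spread over many genes. They were nearest to 7995 protein-coding genes, of which 5065 had 1 and 87 had 10 or more. By number of E2-only peaks the first was ZMIZ1, a transcriptional coactivator, with 42 E2-only and 17 shared E2 peaks over 742 kb. Next were HS6ST1, a heparan sulfate sulfotransferase, with 40 and 7 over 348 kb, and CXXC5, a CXXC zinc finger gene, with 39 and 10 over 98.6 kb. MYH9, non-muscle myosin IIA, followed with 37 and GSE1, a protein of LSD1 complexes, with 28. They were not alike in marks. H3K4me1 lay at 33 of the 42 peaks of ZMIZ1, 34 of the 39 of CXXC5 and 22 of the 28 of GSE1, where LSD1 of E2-treated cells lay at 27. At FLNA (filamin A, 23 E2-only peaks within 22.9 kb) and FASN (fatty acid synthase, 22 within 23 kb) H3K4me1 lay at none, and LSD1 of E2-treated cells at 0 and 1. KAZN had 27, and BAIAP2, ESPN, RHEX and XXYLT1 had 22 each.

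Genes were then taken by whether a JUN peak lay within 10 kb of a start site. Of 20090 protein-coding genes, 1756 (8.74%) had a DMSO peak and 9023 (44.9%) an E2 peak, 7283 (36.3%) had an E2 peak and no DMSO peak, and 16 (0.0796%) the reverse. With the E2 list at equal length, 616 genes (3.07%) had an E2 peak and no DMSO peak. Lists of genes were read against these shares. A member with a DMSO peak cannot count as E2 alone, so the share among members without a DMSO peak is given too, which for all genes was 7283 of 18334 (39.7%). Values of a gene are for its strongest peak of each list within that distance, and the scaled ratio divides each pileup by its library's background, as above, where both peaks overlap.

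Among 30 known estrogen-induced genes, 6 had a DMSO peak, 22 an E2 peak and 16 (53.3%, or 66.7% of the 24 without a DMSO peak) an E2 peak alone, but only 2 at equal length. GREB1 had 3 E2-only peaks within that distance. NHERF1, a scaffold protein, had 6 with a strongest pileup of 69. The peaks at NRIP1, a corepressor of nuclear receptors (51 tags, 1300 bp from a start site), CA12, carbonic anhydrase 12 (37 tags, 6096 bp) and CTSD, the protease cathepsin D (39 tags, 8188 bp) each held an ERE with 1 mismatch, and the last of them an AP-1 motif too. RARA itself had 2 DMSO peaks of up to 26 tags and 13 E2 peaks of up to 137, a scaled ratio of 2.61. ADCY9, an adenylate cyclase gene, had 46 and 66 tags, a ratio of 0.71. No peak of either treatment was found for TFF1, TFF3, PGR, IGFBP4, CXCL12, PDZK1, AREG and ALPL. TGFA, an EGF receptor ligand, had none after DMSO and 3 after E2, with 64 tags at its start site. XBP1, SIAH2, SGK1 and PEG10 each had their strongest E2-only peak at the start site, of 36 to 41 tags and without an ERE.

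Of 20 genes of AP-1 subunits and relatives, 10 already had a DMSO peak, 14 had an E2 peak and 4 (20%, or 40% of the 10 others) an E2 peak alone. At JUN, the pileup 50 bp from a start site was 53 tags (fold 22.3) in the DMSO list and 156 tags (fold 37.9) in the E2 list, a scaled ratio of 1.46, and JUNB had 5 and 10 peaks. FOS had 1 peak in each list, with 26 and 57 tags, a ratio of 1.09. FOSB, ATF7, JDP2 and MAFF, which encode other bZIP proteins, had peaks after E2 alone. MAFK had 34 and 101 tags at a promoter with an AP-1 motif, a ratio of 1.47.

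The immediate early genes, which growth factors induce within minutes, had DMSO peaks in 14 of 27 cases and E2 peaks in 22, with 8 (29.6%, or 61.5% of the 13 without a DMSO peak) after E2 alone. Those 8 were FOSB, EGR3, IER5, KLF6, NR4A2, NR4A3, SRF and MCL1, with strongest pileups of 31 to 70 tags. ATF3 had 56 and 129 tags at its promoter and IER3, a survival factor, 41 and 108 tags, scaled ratios of 1.14 and 1.3. Of 19 kinases and phosphatases of the AP-1 pathway, 4 had a DMSO peak and 10 an E2 peak. The 4 were the MAP kinase phosphatases DUSP1, DUSP5, DUSP6 and DUSP8, whereas MAP2K1, MAP2K2, MAP2K7, MAP3K1, MAP3K5 and DUSP16 had E2 peaks alone (31.6%, or 40% of those without a DMSO peak).

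Of 30 classical AP-1 target genes, 5 had a DMSO peak, 12 an E2 peak and 7 (23.3%, or 28% of the 25 without a DMSO peak) an E2 peak alone. LIF, the cytokine of implantation, had the strongest, 72 tags after DMSO and 197 after E2 at 5931 bp from a start site, a scaled ratio of 1.35. PLAU, urokinase, had 17 and 78 tags (2.27), and CCND1, cyclin D1, had 7 and 14 peaks. LAMB3, a laminin chain, had 3 E2-only peaks of up to 102 tags with an AP-1 motif. Targets of YAP and TEAD, the Hippo effectors that often sit beside AP-1 at enhancers, had a DMSO peak in 8 of 23 cases, an E2 peak in 18 and an E2 peak alone in 11 (47.8%, or 73.3% of the 15 without a DMSO peak). ANKRD1 had 55 and 214 tags at its promoter, a scaled ratio of 1.93, and CCN2 24 and 68, a ratio of 1.4. At IGFBP3 a DMSO peak had 30 tags and the E2 peak was another one, with 37.

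Transcription factor genes of the endometrium had DMSO peaks in 6 of 20 cases, E2 peaks in 11 and E2 peaks alone in 5 (25%, or 35.7% of the 14 without a DMSO peak). ESR1, the gene of estrogen receptor alpha, had 3 peaks in each list, of up to 59 and 158 tags, a scaled ratio of 1.33. PAX8, a Müllerian lineage factor, had 2 DMSO and 12 E2 peaks, and EMX2 had 2 and 5. HOXA9, HOXA10 and HOXA13 had peaks after E2 alone, of 26 to 40 tags, the strongest of the first pair being the same peak. With the E2 list at equal length, each of the 7 lists had 0 to 2 genes with an E2 peak alone and 0 to 4 with a DMSO peak alone. Over all 20090 protein-coding genes these counts were 616 and 537. Only a gene with a DMSO peak can count as DMSO alone, which holds for 1756 of all genes. The immediate early genes, with the highest count of DMSO alone, had a DMSO peak in 14 of 27 cases.

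In T-47D breast carcinoma cells there were 28703 JUN peaks after DMSO and 24885 after E2, a ratio of 0.867. They covered 16.7 Mb after DMSO and 17.6 Mb after E2. Of the Ishikawa E2-only peaks, 48.6% (47.8 to 49.4) overlapped a T-47D JUN peak of E2-treated cells, against 35.6% (34.0 to 37.3) of shared E2 peaks and 10.5% (6.55 to 15.8) of DMSO-only peaks. At equal length the shares were 31% (28.6 to 33.5) and 33.5% (31.6 to 35.4), so that the higher share of E2-only peaks was found in the full lists and not at equal length. In the full lists the overlap depended on place. At promoters it was 85% of E2-only and 74.9% of shared E2 peaks, and away from them 20.7% and 17.8%. E2-only peaks that held an ERE, 11.2% of them at promoters, were at T-47D JUN of E2-treated cells in 24.3% of cases (18.7 to 30.6). Distal E2-only peaks were there in 10.6% of cases with an AP-1 motif (8.77 to 12.5) and in 22.2% with neither sequence (21.2 to 23.1).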

How the data were processed

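Per the methods of the study and the labels, the authors aligned reads to hg19 with Bowtie 1.1.2 and called peaks in each library with MACS2 2.1.0.20140616. Each deposited peak has a summit with its fold enrichment (a ratio of pileup to local background) and the −log10 of its p-value and q-value. The lists used here reach down to a −log10 p-value of 10. Tag numbers and pileups are not among the columns of these lists. Summit pileup and local background were solved from fold enrichment and p-value, to within 0.02 of the −log10 p-value, after a test on simulated data. As genome background served the smallest value that 10 or more peaks had in common within 0.2%. Tag numbers were derived from it, with a mappable genome of 2700 Mb and a fragment as long as the narrowest peak. Places follow GENCODE release 44 on GRCh37, with distances from the summit, and the same reference was searched for motifs. Python 3.11.15, numpy 2.4.6, scipy 1.17.1 and pysam 0.24.0 were used.

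The text names the 10 strongest E2-only, 10 strongest shared and 5 strongest DMSO-only peaks by −log10 p-value (for shared peaks the lower of both lists) on chromosomes 1 to 22 and X, the 10 genes nearest to most E2-only peaks with ties, and genes of 7 lists. Members and lists were chosen with earlier results of these data known. With 1 library per treatment no test was made. Alternatives varied the overlap rule, list length, promoter width, mark lists and motif window. Apart from the replicate ratios of RNA polymerase II, other T-47D lists and the inputs were not used here.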

Additional observations from a re-analysis of the deposited data

Results flagged for a closer look

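The number of JUN peaks moved in opposite directions in the cell lines, with an E2 to DMSO ratio of 4.86 in Ishikawa and 0.867 in T-47D. The length covered by the peaks did not. From DMSO to E2 it went from 1.48 Mb to 8.56 Mb in Ishikawa and from 16.7 Mb to 17.6 Mb in T-47D. Either ratio comes from a single library per treatment, and whether the lines differ was not tested.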

How the results depend on the processing

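Of 88 alternatives to 29 values, 20 kept the value within its counting interval (counts of peaks or genes within 1.5 times), 65 moved it further and 3 turned its direction. The match on rank, the promoter rule by summit, the ERE with 1 mismatch and the T-47D overlap at equal length were chosen after seeing the data. No paired analysis was possible because each treatment had 1 JUN library and no test was made. With the E2 list shortened to the length of the DMSO list by −log10 p-value there were 1401 E2-only and 1200 DMSO-only peaks, and 68.2% of DMSO peaks were shared. Promoters then held 23.8% of E2-only, 28.4% of shared and 31.6% of DMSO-only peaks, the E2-only minus shared difference being -4.66 points, which turns its direction. H3K4me3 stood at 55.2%, 70.3% and 46.2% (difference -15.1), H3K4me1 at 58%, 65.4% and 24.1% (-7.44). The AP-1 motif was at 14.7% of E2-only and 17% of shared peaks (-2.28), and the ERE with at most 1 mismatch at 6% of E2-only peaks (difference 5.15). T-47D JUN after DMSO was at 37.7% of E2-only peaks, and after E2 at 31% of E2-only and 33.5% of shared peaks, and 616 genes had an E2 peak alone. Matching on rank in the E2 list gave a weighted mean difference of -5.2 points for promoters, which again turns its direction. It gave -11.6 for H3K4me3, -1.1 for H3K4me1, -0.786 for AP-1 and 6.05 for the ERE. For promoters and for H3K4me3 the steps from rank 6001 to 18000 had the opposite sign, with few shared peaks and, in most steps, overlapping intervals. Shortening by fold enrichment gave 1616 E2-only and 1444 DMSO-only peaks and 61.7% of DMSO peaks shared. That share was 91.5% at a fold of at least 10 (6478 E2-only peaks), 53.2% with a reciprocal overlap of 50% (1763 DMSO-only peaks), 71.9% with summits at most 100 bp apart (1059) and 93.1% with E2 pileups scaled to the DMSO background. Promoters of 1 kb either side held 51.4% of E2-only, 37.1% of shared and 22.6% of DMSO-only peaks (difference 14.4). Start sites of protein-coding genes alone gave 39.2% and 24.4% (14.8), and summits within 250 bp 38.8% and 24.3% (14.4). Against the marks of E2-treated cells, H3K4me3 was at 61.6% of E2-only and 63.6% of shared peaks (-1.94) and H3K4me1 at 27.7% and 48.2% (-20.5). With the summit itself inside the mark, H3K4me3 was at 54.3% and 53.5% (0.835, a turned direction) and H3K4me1 at 20.1%, 26.8% and, for DMSO-only peaks, 2.63% (difference -6.69). A motif window of 100 bp either side gave AP-1 at 13.1%, 21.8% and 14.4% of E2-only, shared and DMSO-only peaks (E2-only minus shared -8.63), and the ERE at 2.19% of E2-only and 1.37% of shared peaks. Apart from the change that fewer E2 peaks bring by construction, causes of these shifts were not tested. Depth was estimated, not given, and a site without a DMSO peak may have been bound below the limit of the shallower library.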
